A study of Mus musculus with 6 samples.

Results

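The actin nucleation machinery of mouse follicular B cells was examined through 10 genes: Was and Wipf1 of the WASP branch, Hcls1, the genes Wasf2, Nckap1l, Abi1 and Cyfip2 of the WAVE complex, and the formins Diaph1, Fmnl1 and Daam1. The genes were chosen by name, and all 10 were found, as 15 of the 25017 entries and 10 of the 20458 gene names in the authors' table. Diaph1 is listed there under its older symbol Diap1, and the other 9 under the names used here. Follicular B cells (B220+, AA4.1-, CD23+ and CD21lo) came from C57BL/6 mice, 3 of them CD23Cre+Myh9wt/fl and 3 CD23Cre+Myh9fl/fl, and were isolated by flow cytometry. The RNA of these 6 samples was amplified and sequenced. Both genotypes carry a Cre recombinase driven by CD23 (Fcer2) and at least 1 floxed allele of Myh9, the myosin IIa heavy chain, so deletion starts only once a maturing B cell turns on CD23, and the comparison group is haploinsufficient rather than wild-type. The ages of the mice are not given in the labels.

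The authors deposited 1 value of FPKM (fragments scaled to transcript length and to mapped fragments) for each genotype and entry, pooled over its 3 samples. An entry is a set of transcripts with the same coding sequence, and the entries of a gene were summed here. Since the values of the single samples are pooled, no value below has a spread between mice and no difference could be tested; a higher or lower value is a description of these 2 pools. Log2 ratios are fl/fl over wt/fl with 1 added to each FPKM, which understates the ratio of low genes. A ratio of at least 1.5 in either direction was counted as past the fold among genes averaging 1 FPKM or more. In bulk RNA, fewer cells with a transcript cannot be told apart from less transcript per cell.

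Actin filaments in immune cells are started by machines of different kinds. WASP and WAVE proteins bind actin monomers and switch on the Arp2/3 complex, which grows a new filament as a branch from an old one, whereas formins build straight filaments and stay on the growing end. In B cells, branched actin drives spreading over antigen-bearing surfaces and the clustering of receptors, and myosin IIa pulls on the filaments that these machines make. Loss of WASP causes the Wiskott-Aldrich immunodeficiency, and loss of HEM1, the product of Nckap1l, causes an immunodeficiency as well.

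Cells of both genotypes were rich in B cell transcripts, with the 8 markers of the list summing to 5031 FPKM in wt/fl against 5324 FPKM in fl/fl. Myh9 was at 50.6 FPKM in wt/fl against 21.1 FPKM in fl/fl, a log2 ratio of -1.22. The reads that remain can come from exons outside the deleted exon, among other sources. Their source was not tested, since the values hold no levels of single exons. The 9 neutrophil markers summed to 379 FPKM in wt/fl against 66.9 FPKM in fl/fl, and of the 7 averaging 1 FPKM or more all 7 were past 1.5-fold lower, with a range of log2 ratios from -2.65 to -1.57. The sum was 22.8 and 21.4 FPKM for 6 T cell markers, 10.8 and 8.65 FPKM for 5 macrophage markers, and 3.84 and 0.726 FPKM for the 4 of 5 erythroid markers found, in wt/fl and fl/fl. Most of the T cell sum was Lck, at 14.5 FPKM in both genotypes. Cd3d was at 3.02 and 2.31 FPKM, Cd3g at 1.96 and 1.26 FPKM and Cd3e at 1.83 and 1.96 FPKM. Cd4 and Cd8a were under 1 FPKM in both. These T cell markers were named after their values were seen. Several of the nucleation genes, Was, Nckap1l, Hcls1 and Fmnl1 among them, are used by leukocytes of many kinds, and the part of these other cells in the values below was not tested.

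Of the 10 genes, 9 averaged 1 FPKM or more, and 0 of these 9 were past 1.5-fold in either direction, where 0.791% of the 9866 genes compared were past it as higher and 1.53% as lower in fl/fl. With 25% as the limit (the larger FPKM + 1 at least 25% above the smaller) the count was also 0, beside 4.60% of all genes as higher and 5.48% as lower. The value was higher in fl/fl than in wt/fl for 8 of the 9 and lower for 1, Fmnl1, while 50.5% of the 9866 genes and 53.5% of the 5947 averaging 10 FPKM or more were higher. Their median log2 ratio was 0.064, with a range from -0.042 to 0.31, and the median over all 9866 genes was 0.0026. Some of the ratios were near 0, such as 0.026 for Hcls1 and 0.033 for Diaph1. Summed Abi1 counts as higher, while its highest entry was lower in fl/fl. Of the 8 B cell markers, 7 were higher and 1 lower in fl/fl, with a median log2 ratio of 0.073. Daam1, under 1 FPKM in both genotypes, is left out of the counts of nucleation genes.

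**Figure D1:**
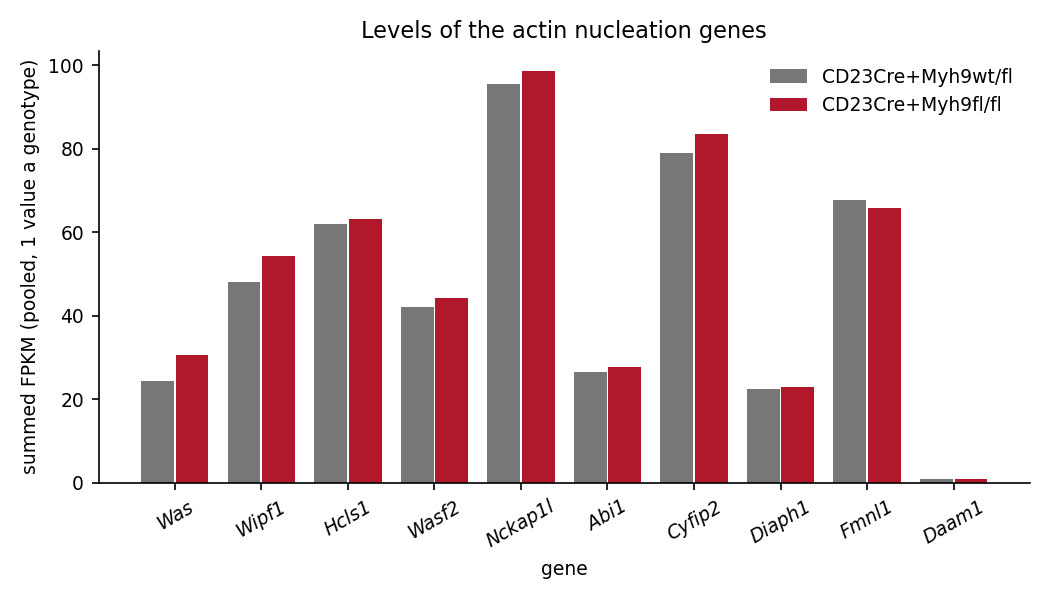
Summed FPKM (y axis) of each nucleation gene (x axis) in the pooled CD23Cre+Myh9wt/fl (grey) and CD23Cre+Myh9fl/fl (red) samples; no error can be drawn for pooled values. Nckap1l is the highest in both genotypes, at 95.4 and 98.5 FPKM, and Daam1 the lowest, at 0.927 and 0.824 FPKM.

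Since FPKM is scaled to length, levels can be ordered across genes. In wt/fl the order from high to low was Nckap1l, Cyfip2, Fmnl1, Hcls1, Wipf1, Wasf2, Abi1, Was, Diaph1 and Daam1. In fl/fl it was the same except that Was (30.5 FPKM) stood above Abi1 (27.6 FPKM). By its mean level Nckap1l was at or above 93.5% of the genes compared and Diaph1 at or above 65.8%, so all 9 genes past the filter lay in the upper part of the transcriptome. Without a spread between samples, it cannot be said which neighbours in this order differ.

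**Figure D2:**
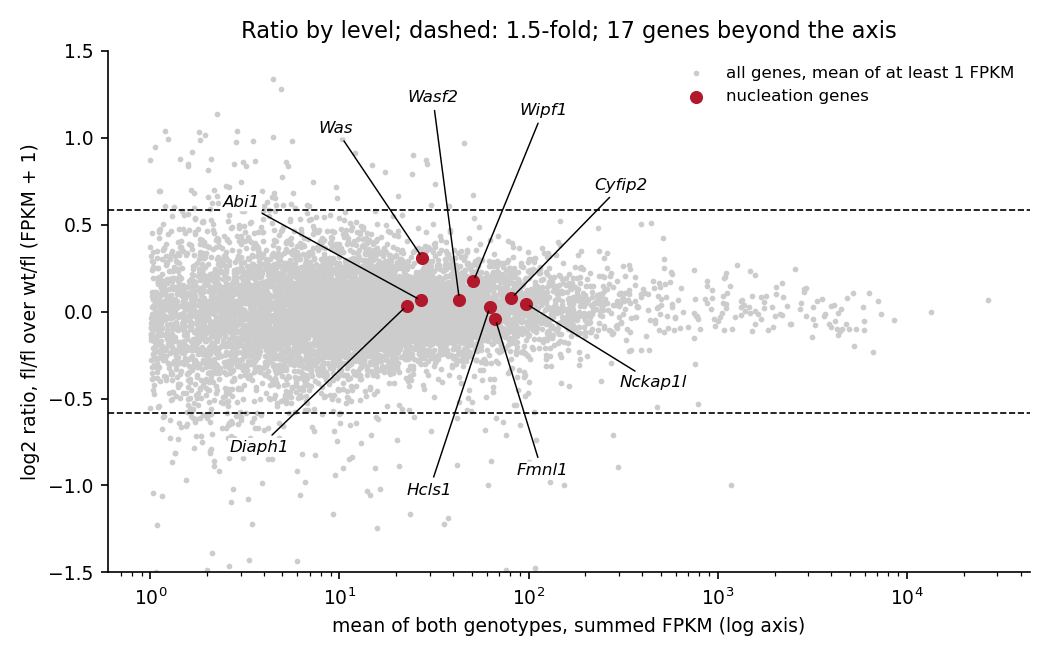
Log2 ratio of fl/fl over wt/fl on FPKM + 1 (y axis) against the mean level of both genotypes (x axis, log scale) for 9866 genes (grey) and the 9 nucleation genes averaging 1 FPKM or more (red). All 9 red points lie between the dashed lines at 1.5-fold, Was being the farthest from 0 at 0.31; 17 grey points fall beyond the y axis.

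WASP, the product of Was, is the blood cell activator of Arp2/3 that is opened by the GTPase CDC42. Was, a single entry on chromosome X from 7658591 to 7667617 (as listed by the authors, read here as mm9 without a check against that build), stood at 24.4 FPKM in wt/fl against 30.5 FPKM in fl/fl, a log2 ratio of 0.31. This was the highest ratio of the 10 genes. It lay outside the range of -0.26 to 0.26 that holds the middle 90% of the 5947 genes averaging 10 FPKM or more. Over all 9866 genes compared, the middle 90% ran from -0.339 to 0.311, and Was at 0.309 lay just inside. Both ranges run from percentile 5 to percentile 95, so some genes lie outside them by construction. Was was set against them as the highest of 10. Was stayed short of the 25% limit. Its widely expressed paralog Wasl, which encodes N-WASP, went the other way, with 20.8 FPKM in wt/fl against 16.5 FPKM in fl/fl and a log2 ratio of -0.32. Wasl was short of the 25% limit on FPKM + 1 and past it on FPKM with nothing added, where the ratio was 0.794. Both entries of Wasl were lower in fl/fl, at 15.5 and 12.3 FPKM for the larger and 5.31 and 4.17 FPKM for the smaller. Was therefore held 54.0% of the summed FPKM of the pair in wt/fl and 64.9% in fl/fl. The sum of both was 45.2 FPKM in wt/fl against 47.0 FPKM in fl/fl.

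The 250 bases in front of the RefSeq start of Was and of Wasl (GRCm38.p6, both on the minus strand) are printed. Every CG dinucleotide is in capitals. The pair was picked after its ratios, which were of opposite sign, had been seen. Wipf1 and Wipf2, and summed Abi1 and Abi3, also had ratios of opposite sign. Was, chrX:8090492-8090741, holds 4 CG, and Wasl, chr6:24664996-24665245, holds 28.
Was: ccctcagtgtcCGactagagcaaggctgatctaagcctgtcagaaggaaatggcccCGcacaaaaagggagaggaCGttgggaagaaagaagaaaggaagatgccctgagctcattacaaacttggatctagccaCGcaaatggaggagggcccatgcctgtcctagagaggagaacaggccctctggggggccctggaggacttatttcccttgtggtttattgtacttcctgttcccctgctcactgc
Wasl: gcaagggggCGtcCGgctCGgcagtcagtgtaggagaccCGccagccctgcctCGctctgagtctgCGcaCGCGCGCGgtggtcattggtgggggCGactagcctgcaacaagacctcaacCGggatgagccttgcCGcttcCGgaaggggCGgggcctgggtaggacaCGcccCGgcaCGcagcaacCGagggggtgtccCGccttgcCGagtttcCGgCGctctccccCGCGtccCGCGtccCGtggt
The median over 32851 windows of this length in the RefSeq table was 6 CG, 44.4% of the windows had no more than the Was window, and 7.61% had at least as many as the Wasl window. At least 1 CG was found in 92.1% of them. Of the 10 nucleation genes 8 have a window in the table, some of them more than 1. That of Hcls1, another gene of blood cells, also held 4 CG, as did 1 Daam1 window, while another of Daam1 held 9. The window of Fmnl1 held 34, that of Wasf2 23 and that of Cyfip2 16. Both Abi1 windows held 9, and those of Wipf1 held 1, 3 and 29. A count of CG describes the sequence and says nothing about its use in these cells.

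WIP, the product of Wipf1, binds WASP and protects it from degradation. Wipf1, a single entry on chromosome 2 from 73267673 to 73367467 (mm9), stood at 48.0 FPKM in wt/fl against 54.3 FPKM in fl/fl. Its log2 ratio of 0.17 came next after that of Was and lay within the middle 90% of genes averaging 10 FPKM or more. Wipf1 stood at 1.96 times the FPKM of Was in wt/fl and 1.78 times in fl/fl. The paralog Wipf2 was at 14.5 and 13.3 FPKM, a log2 ratio of -0.12, and Wipf3 was at 0.0186 FPKM in wt/fl and listed at 0 in fl/fl. Wipf1 held 76.8% of the FPKM of this family in wt/fl and 80.3% in fl/fl.

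HS1, the product of Hcls1, is the blood cell relative of cortactin, which holds branch points made by Arp2/3, and it is phosphorylated downstream of the B cell receptor. Hcls1, a single entry on chromosome 16 from 36935068 to 36963300 (mm9), stood at 61.9 FPKM in wt/fl against 63.0 FPKM in fl/fl, a log2 ratio of 0.026. Cttn, the cortactin gene, was at 0.0608 and 0.0679 FPKM, so Hcls1 made up 99.9% of the pair in both genotypes.

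The WAVE complex of several subunits is held inactive until the GTPase RAC1 or RAC2 binds it at the membrane. Wasf2 encodes WAVE2, the subunit that contacts Arp2/3. It was at 42.0 FPKM in wt/fl against 44.1 FPKM in fl/fl, a log2 ratio of 0.069, from a single entry on chromosome 4 from 132686547 to 132754245 (mm9). Wasf1 was listed at 0 in wt/fl and at 0.0464 FPKM in fl/fl, and Wasf3 was listed at 0 in both, which leaves Wasf2 with 100% of the FPKM of the WAVE family in wt/fl and 99.9% in fl/fl.

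Nckap1l encodes HEM1, the scaffold subunit of blood cells. It was at 95.4 FPKM in wt/fl against 98.5 FPKM in fl/fl, a log2 ratio of 0.046, from a single entry on chromosome 15 from 103284255 to 103329231 (mm9). The paralog used elsewhere, Nckap1, was at 0.137 and 0.0325 FPKM. Cyfip2 encodes a subunit that binds RAC directly, and it was at 79.0 FPKM in wt/fl against 83.5 FPKM in fl/fl, a log2 ratio of 0.078 (chromosome 11 from 46007350 to 46126361, mm9). Cyfip1 was at 5.36 and 5.33 FPKM, and Cyfip2 held 93.7% and 94.0% of the family. In the Wasf2, Nckap1l and Cyfip2 families, as in that of Hcls1, the same paralog held over 90% of the FPKM in both genotypes. The scaffold pair stood above the WAVE subunit, with Nckap1l at 2.27 and 2.23 times and Cyfip2 at 1.88 and 1.89 times the FPKM of Wasf2 in wt/fl and fl/fl. Brk1, the smallest subunit of the complex, was at 147 and 140 FPKM, a log2 ratio of -0.067.

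ABI1, the product of Abi1, links WAVE to the rest of the complex and recruits the ABL kinase. Its 5 entries share the locus on chromosome 2 from 22751041 to 22895760 (mm9) and summed to 26.4 FPKM in wt/fl against 27.6 FPKM in fl/fl, a log2 ratio of 0.064. The entries did not move alike. The highest was at 16.5 FPKM in wt/fl against 14.4 FPKM in fl/fl, whereas the next was at 5.87 and 8.10 FPKM and the one after it at 3.80 and 4.90 FPKM. The log2 ratios of these 3 entries were -0.18, 0.40 and 0.30, so the sign for Abi1 turns when the highest entry is taken in place of the sum. The highest entry held 62.5% of the FPKM of the gene in wt/fl and 52.2% in fl/fl. The remaining entries were near 0, at 0.219 and 0.201 FPKM for the larger and at 0.000343 and 0 FPKM for the smaller. How fragments were split among entries that share most of their exons is an estimate of the authors' software, and its error cannot be given here.

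**Figure D3:**
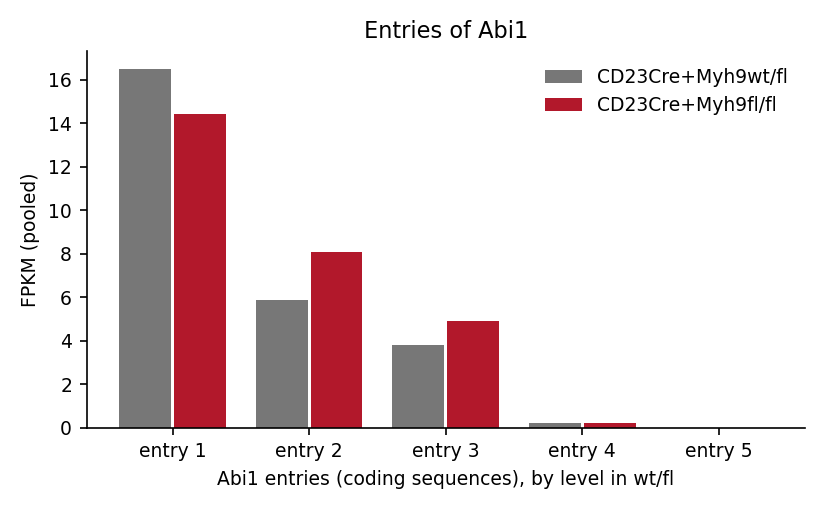
FPKM (y axis) of the 5 Abi1 entries (x axis), ordered by their level in wt/fl, in the pooled CD23Cre+Myh9wt/fl (grey) and CD23Cre+Myh9fl/fl (red) samples, with no error since the values are pooled. The first entry is lower in fl/fl (16.5 and 14.4 FPKM) and the next 2 are higher.

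The optional coding exons of Abi1 are printed to show how small the differences between such entries can be. In GENCODE M21 on GRCm38, Abi1 has 11 coding transcripts on the minus strand, which share 8 coding exons and range from 1164 to 1443 coding bases. The exons that differ are a 15-base exon at chr2:22971027-22971041 (in 1 transcript), a 15-base exon at chr2:22963214-22963228 (in 6), a 177-base exon at chr2:22953435-22953611 (in 4, while another 4 use a form shorter by the 3 bases in capitals and 3 skip it), and an 87-base exon at chr2:22950184-22950270 (in 6).
Abi1, 15-base exon of 1 transcript: aaattgtggcaggaa
Abi1, 15-base exon of 6 transcripts: tggctaaaagccaag
Abi1, 177-base exon: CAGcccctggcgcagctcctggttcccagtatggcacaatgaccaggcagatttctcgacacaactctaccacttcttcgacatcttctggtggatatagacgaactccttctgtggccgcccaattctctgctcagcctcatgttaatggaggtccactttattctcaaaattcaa
Abi1, 87-base exon: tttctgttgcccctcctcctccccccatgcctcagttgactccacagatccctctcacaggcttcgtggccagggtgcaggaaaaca
Each length is a multiple of 3, so the reading frame is kept whichever are used. The authors' table does not name the transcripts of an entry, and the 5 entries were not matched to these exons.

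The other ABI genes were lower in fl/fl. Abi3 was at 17.9 FPKM in wt/fl against 13.7 FPKM in fl/fl, a log2 ratio of -0.37, and was the only paralog past the 25% limit on FPKM + 1. Exons annotated on the opposite strand cover much of Abi3 (Zfp652 alone 70.1% of its exonic bases), and fragments from both strands cannot be told apart without strand, which the sources used here do not state for these libraries, so this value is uncertain. For Abi1 such overlap is 4.81% (with Pdss1), and for Fmnl1 it is 2.46%. Abi2 was at 1.39 and 1.23 FPKM, a log2 ratio of -0.10. Abi1 held 57.7% of the family in wt/fl and 65.0% in fl/fl, but 46.1% and 49.7% when each gene was represented by its highest entry.

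Formins are kept folded shut until a small GTPase opens them. Fmnl1, the formin of blood cells, was the highest of the 3 at 67.7 FPKM in wt/fl against 65.7 FPKM in fl/fl, and its log2 ratio of -0.042 was the only one below 0 among the 9 genes past the filter. Of its 2 entries (chromosome 11 from 103032451 to 103060214, mm9), the larger was at 66.8 and 65.3 FPKM and held 98.7% and 99.4% of the gene, and the smaller was at 0.879 and 0.424 FPKM. Fmnl3 was at 20.2 and 20.9 FPKM and Fmnl2 at 0.763 and 0.754 FPKM, so Fmnl1 held 76.3% of the family in wt/fl and 75.2% in fl/fl.

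Diaph1 encodes mDia1, an effector of RHOA, the GTPase that also activates myosin II through its kinase ROCK. It was at 22.4 FPKM in wt/fl against 23.0 FPKM in fl/fl, a log2 ratio of 0.033, from a single entry on chromosome 18. Its paralogs were lower in level, Diaph2 at 5.85 and 5.23 FPKM and Diaph3 at 1.01 and 0.867 FPKM, and Diaph1 held 76.6% and 79.0% of the 3. Fmnl1 stood at 3.02 times the FPKM of Diaph1 in wt/fl and 2.86 times in fl/fl. Daam1, a formin of Wnt and planar polarity signaling (chromosome 12 from 72932064 to 73093354, mm9), had 0.927 FPKM in wt/fl against 0.824 FPKM in fl/fl, a log2 ratio of -0.079, and Daam2 was at 0.368 and 0.306 FPKM. Among the remaining formins, Fhod1 was at 8.80 and 8.43 FPKM and Inf2 at 2.43 and 2.64 FPKM.

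**Figure D4:**
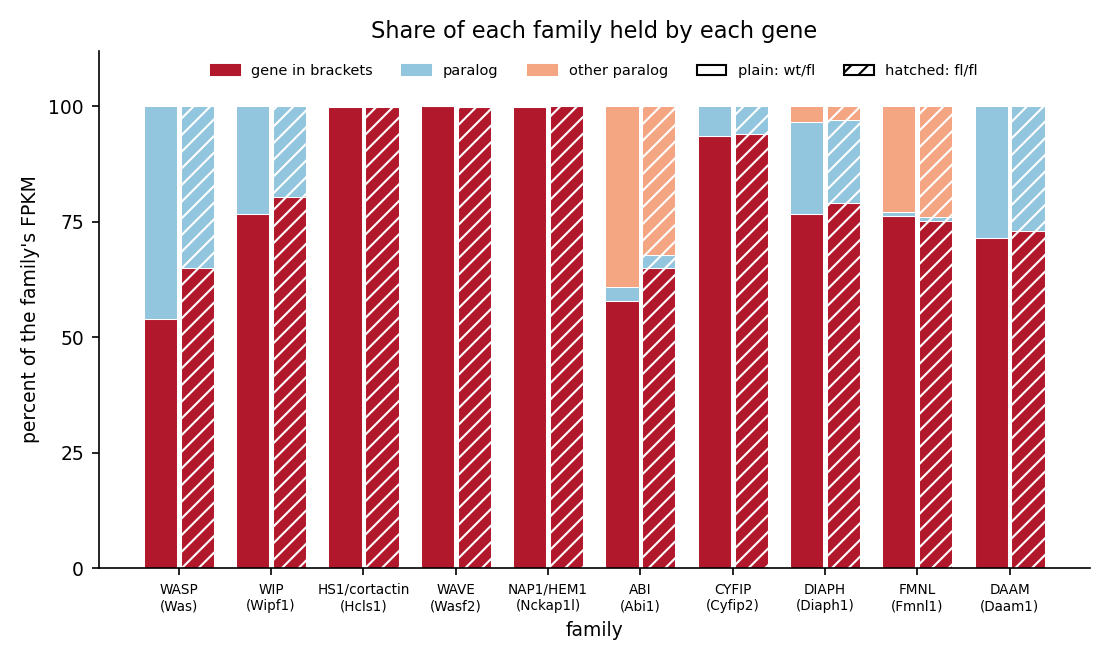
Percent of the summed FPKM of each family (y axis) held by the nucleation gene named in brackets (dark red) and by its paralogs (blue and orange), for the 10 families (x axis), with plain bars for wt/fl and hatched bars for fl/fl. The Was share is 54.0% and 64.9% and the Abi1 share 57.7% and 65.0%, while Hcls1, Wasf2, Nckap1l and Cyfip2 fill over 90% of their families in both genotypes.

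Over the 10 families, the nucleation gene held more than 50% of the FPKM in both genotypes in 10. For Abi1 this did not hold with the highest entry of each gene (46.1% and 49.7%), and its share rests on the uncertain value of Abi3. The share of the nucleation gene was higher in fl/fl in 7 and lower in 3, and it moved by over 5 percentage points in 2, those of Was and Abi1. The counts of 7 and 3 include moves near 0, of -0.105 points for Wasf2, 0.110 for Nckap1l and -0.00949 for Hcls1. They also include Daam1, which like Daam2 was under 1 FPKM in both genotypes. No such count was made over other gene families, so 7 and 3 are not read as a trend. In the Was family Was was higher and Wasl lower in fl/fl, and in the Abi1 family summed Abi1 was higher and Abi2 and Abi3 were lower.

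The other genes of the pathway were taken from 5 lists of 80 genes, all of them found in the authors' table, 64 averaging 1 FPKM or more. Of these 64, 0 were past 1.5-fold higher and 0 past 1.5-fold lower in fl/fl, 38 were higher and 26 lower, and the median log2 ratio was 0.048. On FPKM + 1, past the 25% limit were 1 higher and 2 lower, beside 4.60% and 5.48% of all genes. The higher gene was Fnbp1l, which encodes an activator of N-WASP (0.805 and 1.42 FPKM, log2 ratio 0.43), and the lower genes were Abi3 and Washc4. Fnbp1l was named after its values were seen. With nothing added to FPKM, Fnbp1l would be past 1.5-fold, at a ratio of 1.77, and Wasl would join the lower genes past 25%.

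Among 22 paralogs, other formins and Brk1, 10 averaged 1 FPKM or more, of which 2 were higher and 8 lower in fl/fl, with a median log2 ratio of -0.083. The median of the 9 nucleation genes, 0.064, was on the other side of 0, but the difference between the lists has no test. All 27 activators and adaptors passed the filter, 15 higher and 12 lower, with a median of 0.041. The GTPases that open these machines were abundant. Rac2, the RAC of blood cells, was at 250.0 FPKM in wt/fl against 280 FPKM in fl/fl, Cdc42 at 230 and 246 FPKM, and Rhoa at 227 and 235 FPKM.

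Of 11 other nucleators and genes of the WASH complex, which activates Arp2/3 on endosomes, 8 passed the filter, 3 higher and 5 lower, with a median of -0.087. Washc4, a WASH subunit, was the lowest of all lists by ratio, at 50.7 FPKM in wt/fl against 35.1 FPKM in fl/fl, a log2 ratio of -0.52. The other WASH subunits of the list that were lower in fl/fl were Washc3, Wash1 and Washc2, with ratios of -0.19, -0.11 and -0.080, and only Washc5 was higher (22.6 and 24.3 FPKM, ratio 0.10). The entries of Washc3 did not move alike. Its largest was at 23.4 FPKM in wt/fl against 18.2 FPKM in fl/fl, and the next at 4.96 and 6.60 FPKM. Overlap with exons of other genes was not examined for the WASH genes. Wash1, Washc2 and the entries of Washc3 were named after their values were seen.

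The 9 subunits of the Arp2/3 complex, the target of WASP and WAVE, had a median log2 ratio of 0.16, with 8 higher and 1 lower in fl/fl, led in level by Actr3 at 1017 and 1165 FPKM, Arpc2 at 477 and 568 FPKM and Arpc5 at 238 and 283 FPKM. Of 11 genes for inhibitors of branching, capping protein and profilin, 10 passed the filter and all 10 were higher, with a median of 0.13. Higher values in fl/fl were found for 50.5% of all genes compared and 53.5% of those averaging 10 FPKM or more, and neither list has a test. Pfn1, which feeds actin monomers to formins, was at 1017 and 1186 FPKM, Coro1a at 689 and 813 FPKM and Gmfg at 167 and 184 FPKM. The counts past the 25% limit were 0 in both lists.

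**Figure D5:**
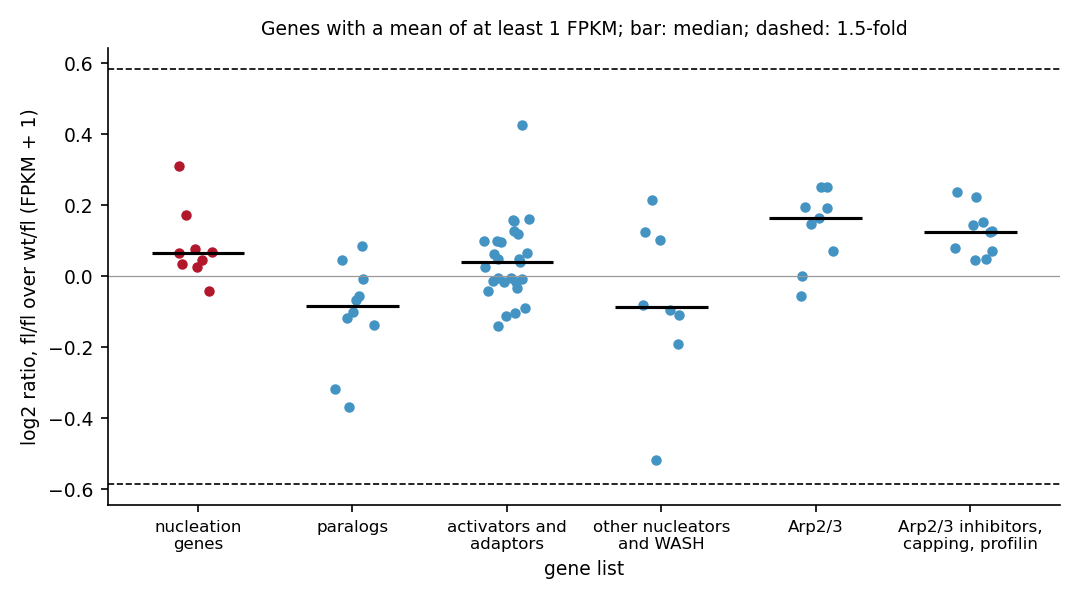
Log2 ratio of fl/fl over wt/fl on FPKM + 1 (y axis) for each gene averaging 1 FPKM or more in the nucleation genes (red) and 5 lists of related genes (blue) along the x axis; black bars are medians and dashed lines mark 1.5-fold. Every point lies inside the dashed lines, the lowest being Washc4 at -0.52.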

How the data were processed

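RNA of follicular B cells sorted from 3 mice of each genotype was amplified (Ovation RNA-Seq V2) and made into TruSeq Nano libraries. Per the labels, the submitters' processing notes name Bowtie, TopHat and Cufflinks, with no version. The notes name mm10 and GRCm38, but the start in GRCm38 minus the listed start ran from -1101114 bases for Daam1 through -85 bases for Hcls1 to 443984 bases for Wasf2, and on chromosome 2 it was 161937 bases for Wipf1 and 189032 bases for Abi1. Also, 118 entries lie on sequences named as random in the manner of mm9. Positions are therefore printed as listed and read as mm9, which was not compared here, and were not converted.

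The deposited FPKM is 1 value a genotype, computed by the authors over 3 samples. The table's fold changes, test statistics, p-values, q-values and significance calls are the authors' own comparison and were not used. Depth per sample is unknown: FPKM times transcript length clustered near 0.0315 in wt/fl and 0.0295 in fl/fl, too broadly (27 and 52 genes in the fullest bin of 0.001) to recover whole reads.

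FPKM was summed over the entries of a gene, leaving out 44 entries whose names had become dates. Genes averaging 1 FPKM or more were compared on log2(FPKM + 1), and the limit was 1.5-fold (Python 3.11.15, pandas 2.3.3). The functions were tested on simulated data. Older symbols were matched through RefSeq synonyms. Genes named with values were the 10 genes, Myh9, paralogs averaging 1 FPKM or more and the 3 highest genes of each other list; lower paralogs and further entries were added after their values were seen. The genes and lists were chosen with earlier results of these data known. Alternatives were pseudocounts of 0.1 and 0.5, filters, a fold of 2, a limit of 25%, 3 scalings and the highest entry of a gene.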

Additional observations from a re-analysis of the deposited data

How the results depend on the processing

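Of 140 comparisons of a value with an alternative, 132 kept it within 0.1 on the log2 scale, 5 percentage points of a share or 1.5 times a count. The limit of 0.1 is larger than the medians of 0.064 and 0.048, so a median could change sign and still count as kept. Without the filter, the median of the related genes was 0.0056, which counted as kept. Some comparisons, such as the highest entry of a gene with 1 entry, could not move at all. None of the alternatives put any of the 10 genes past the fold. For the lists of related genes, the count of higher genes past the fold was 1 with a pseudocount of 0.1 FPKM and 1 with 25% as the limit, and the count of lower genes was 2 with 25% as the limit, against 0 as reported. With the highest entry in place of the sum, Was held 61.2% of its pair in wt/fl and 71.2% in fl/fl. Abi1 then held 46.1% and 49.7% of its family. The log2 ratio of Abi1 was -0.18, the only change of sign in 60 such values for the 10 genes. Many of the 60 could not change sign. A pseudocount keeps the sign of a difference, and the highest entry is the whole gene for 8 of the 10. Of Abi1 and Fmnl1, the genes with more than 1 entry, Abi1 changed sign. By construction, taking the highest entry drops the other entries of Wasl and Abi1. The scalings moved the median of all genes by less than 0.1 on the log2 scale. This says little, since that median was 0.0026 to begin with and the median scaling sets it to 0 by construction. The median of the nucleation genes was 0.058 with upper quartile scaling, 0.062 with median scaling and 0.059 with quantile normalization, against 0.064 as reported.

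No paired analysis was possible because the authors' table holds 1 pooled value a genotype, and for the same reason no replicate was left out. Because of the pooling and the unknown depth, no value can be compared with the spread between mice.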
